A study of Mus musculus with 12 samples.

Results

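The 28 genes described here make cholesterol, move or store it inside the cell, or control the transcription factor SREBP2. They were the entries of the deposited table whose gene symbol stood on a fixed list, and each of the 28 was found in a single entry among 31719 gene symbols. The list does not hold every gene of the pathway. All 28 stood above 1 FPKM (fragments scaled by gene model length and library depth) in at least 3 libraries, so all are among the 10276 genes tested.

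The 12 RNA-seq libraries were made from RAW264.7, a macrophage-like line of mouse origin that the labels call wild type. Of the 4 groups of 3, the first received LPS (lipopolysaccharide) at 50 ng/ml together with an anti-CD36 antibody diluted 1 in 100. The second received LPS at 50 ng/ml alone, the third the antibody at 1 in 100 alone, and the last was left untreated. LPS, from the outer membrane of Gram-negative bacteria, activates macrophages by way of TLR4. CD36 takes up oxidised lipoproteins and fatty acids at the cell surface. The study asked how expression differed between these treatments. No group received an isotype control antibody, so an effect of binding CD36 and one of adding an antibody cannot be told apart, and the labels give no treatment time. RAW264.7 is a single transformed line, and nothing in the labels says whether a group's 3 libraries stem from separate cultures. All p-values therefore measure the spread between these libraries, which may be technical.

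Depth, recovered from the steps of the values, ran from 30070450 to 54137810 fragments per library. The 9 macrophage markers examined, among them Adgre1, Csf1r and Lyz2, stood above 1 FPKM in all 12 libraries. Epithelial markers were listed at 0 throughout, the highest fibroblast and T cell marker values were 0.0186 and 0.0204 FPKM, and the B cell marker Cd79a reached 0.387 FPKM. FPKM is a share of the RNA sequenced, so fewer transcripts per cell, a change in the rest of the RNA and a change in the mix of cells cannot be told apart. In the untreated libraries the cholesterol genes covered a wide range of levels in FPKM, with Fdps at 126 ± 19.4 and Npc2 at 56.5 ± 9.37 at the top and Tm7sf2 at 1.79 ± 0.334 at the bottom (SD, n = 3). The fragments behind a value in 1 library ran from 135 for Tm7sf2 (a counting coefficient of variation of 8.61%) to 32720 (0.553%), which covers counting error only. This was counted over the 27 genes whose values came out as whole fragments, Fdft1 being the exception.

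Cells make cholesterol from acetyl-CoA by way of mevalonate, farnesyl diphosphate, squalene and lanosterol. When the endoplasmic reticulum is low in sterol, the escort protein SCAP carries SREBP2 to the Golgi, where it is cut and released to switch on the genes of the pathway. When sterol is plentiful, INSIG proteins hold SCAP and SREBP2 back, and INSIG1 is itself made under SREBP control. In macrophages, which take up lipoproteins and dead cells, the same sterol pool is filled from outside, emptied by efflux and stored as cholesteryl esters in lipid droplets.

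Promoter sequences are shown because many genes of sterol synthesis, such as Hmgcs1, Lss and Insig1, are known targets of SREBP2, which binds sterol response elements next to general factors such as NF-Y, which binds CCAAT. RefSeq promoter windows (build GRCm38.p6, the 250 bases before each start) were matched by symbol for 23 of the 28 genes, in 29 windows. There was no entry for Fdft1, Fdps, Sqle, Stard4 and Npc1. Below are those of Hmgcs1, the only one with a match to the sterol response element letters searched, of Insig1 and Lss, 2 of the genes called lower with the antibody in both settings, and of Lbr and Soat1, which had the largest fall with LPS and the largest interaction. They are written 5′ to 3′ on the gene's strand, and bases that the GENCODE M21 annotation puts in an exon are left off (49 of 250 for Insig1, 17 for Lss, 3 for Soat1). Capitals mark TCACCCCAC in Hmgcs1, and CCAAT or its complement ATTGG in all 5.
Hmgcs1: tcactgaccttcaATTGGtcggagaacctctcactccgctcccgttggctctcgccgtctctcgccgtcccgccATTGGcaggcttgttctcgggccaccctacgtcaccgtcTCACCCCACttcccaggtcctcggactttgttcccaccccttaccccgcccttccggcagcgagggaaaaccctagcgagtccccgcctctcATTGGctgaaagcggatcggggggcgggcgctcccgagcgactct
Insig1: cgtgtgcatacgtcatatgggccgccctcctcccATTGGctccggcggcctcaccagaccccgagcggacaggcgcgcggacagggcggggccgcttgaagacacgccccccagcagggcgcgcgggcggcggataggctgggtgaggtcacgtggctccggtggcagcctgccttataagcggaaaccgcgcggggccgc
Lss: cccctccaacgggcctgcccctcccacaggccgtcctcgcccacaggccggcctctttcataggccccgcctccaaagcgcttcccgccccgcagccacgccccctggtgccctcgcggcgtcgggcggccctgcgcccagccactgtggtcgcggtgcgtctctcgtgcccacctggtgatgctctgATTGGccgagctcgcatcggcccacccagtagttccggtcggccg
Lbr: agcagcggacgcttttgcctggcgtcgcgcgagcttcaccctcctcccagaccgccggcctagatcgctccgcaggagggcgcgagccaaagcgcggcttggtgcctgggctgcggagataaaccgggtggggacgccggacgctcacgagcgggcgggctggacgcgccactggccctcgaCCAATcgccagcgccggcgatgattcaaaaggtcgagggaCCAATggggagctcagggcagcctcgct
Soat1: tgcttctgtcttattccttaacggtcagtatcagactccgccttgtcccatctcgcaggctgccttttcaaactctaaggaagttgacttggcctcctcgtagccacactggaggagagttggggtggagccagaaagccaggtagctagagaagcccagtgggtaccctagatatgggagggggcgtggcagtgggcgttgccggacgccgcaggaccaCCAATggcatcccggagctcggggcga

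These lie at chr13:119690101-119690350 (plus strand, Hmgcs1), chr5:28071162-28071362 (plus, Insig1), chr10:76531355-76531587 (plus, Lss), chr1:181842402-181842651 (minus, Lbr) and chr1:156474332-156474578 (minus, Soat1) of that build. The Lbr window lies within the GENCODE M21 gene model of Lbr (chr1:181815335-181843046), so in that annotation it is not upstream of the gene. The sterol response element was searched as TCACNCCAC on both strands, and the Hmgcs1 match ends 128 bases before the start. This motif was found in 3.45% of the 29 windows, against 1.05% of the 32851 windows of all genes. CCAAT, searched on both strands, was found in 72.4% of the windows (21 of the 23 genes), against 33.8% of all windows and 35.6% of the windows of tested genes. The GC box GGGCGG, a site of SP1, was found in 75.9%, against 32.7% and 58.8%. No match overlapped another motif in the 5 windows above. A match is a description of letters in these windows and does not show binding. Only these exact letters were searched, so a window without a match may still hold a variant of the element.

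Across the whole set, the summed level of the 28 genes was 524, 532 and 508 FPKM in the LPS+anti-CD36 libraries and 621, 593 and 582 FPKM in the LPS libraries. It was 558, 592 and 584 FPKM in the anti-CD36 libraries and 740, 735 and 713 FPKM in the untreated libraries. The sum was thus lower in every library given the antibody than in every library without it, at either state of LPS, and highest in all 3 untreated libraries. Fdps and Npc2 hold the largest shares of it, and the single genes did not all follow it.

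**Figure D1:**
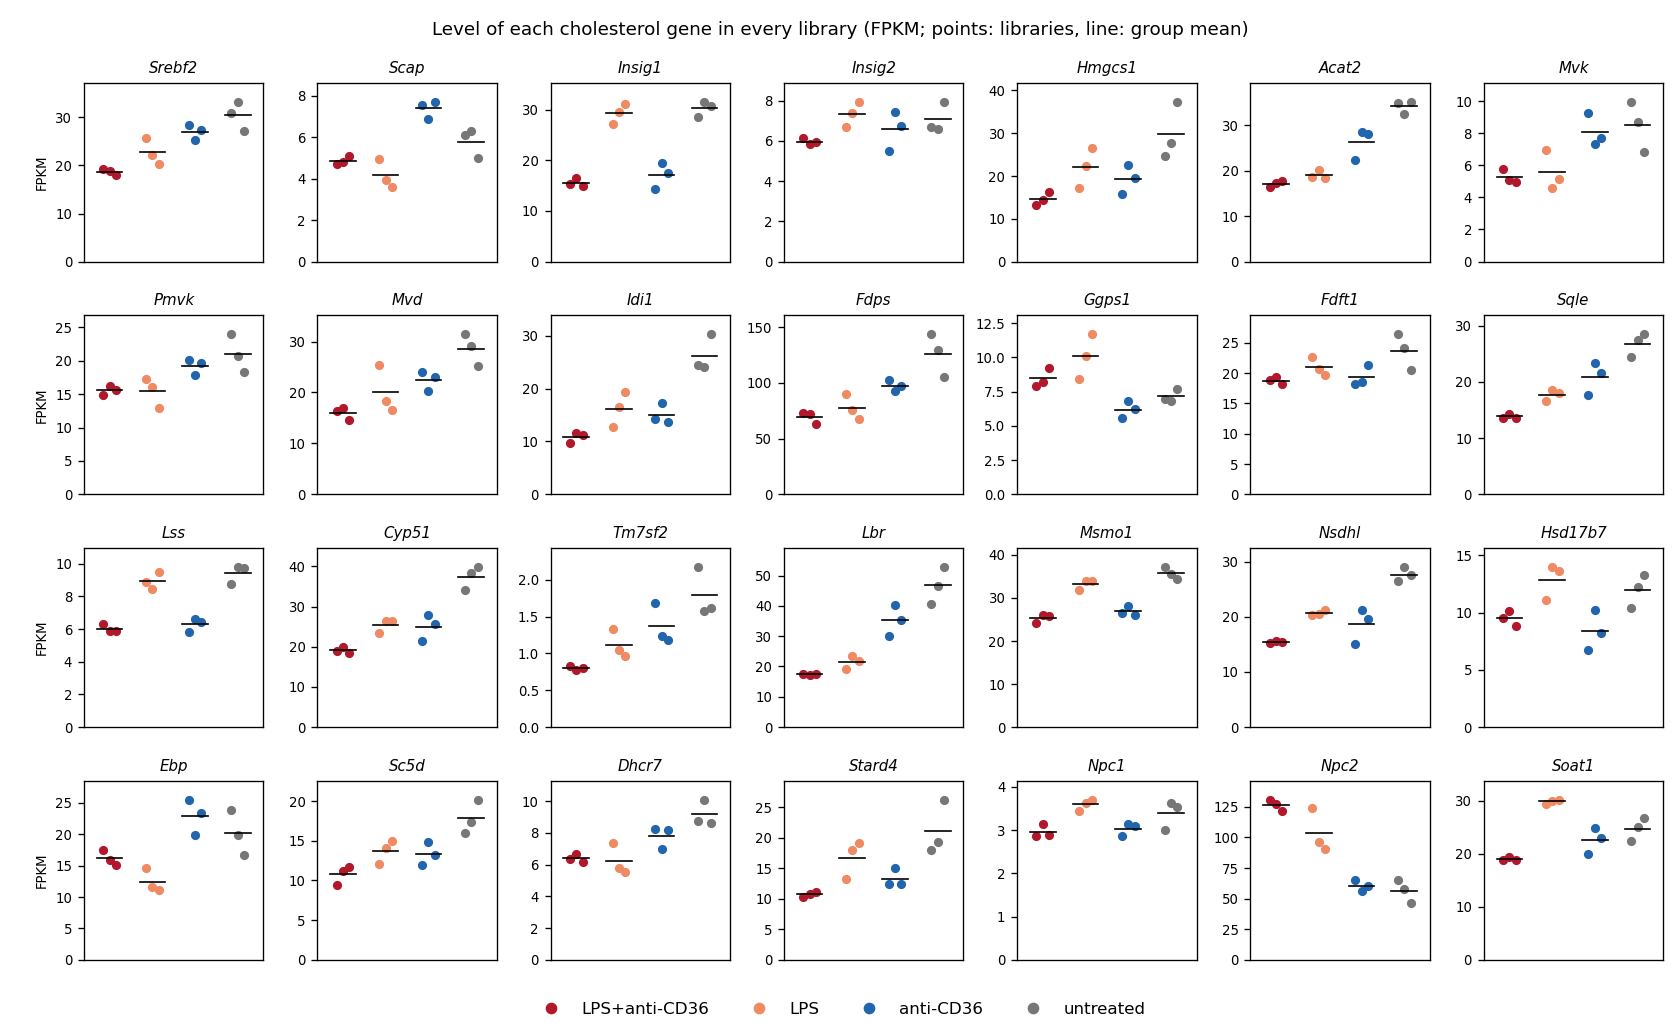
FPKM of each of the 28 genes, 1 panel per gene in the order SREBP2 control, mevalonate and isoprenoid steps, squalene and lanosterol formation, lanosterol to cholesterol, transport and storage; points are libraries and the line is the group mean (n = 3). Insig1 and Lss separate the libraries with the antibody from those without it, Lbr and Npc2 separate those with LPS from those without it, and the LPS libraries of Soat1 stand above all others.

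The first question was what the antibody did without LPS. Cells given anti-CD36 had lower transcript levels of Insig1, the sterol-sensing brake on SREBP processing, and of the enzymes Lss, Cyp51 and Msmo1 than untreated cells. These 4 of the 28 genes were called lower (limma, Benjamini-Hochberg adjusted p under 0.05 over 10276 genes) and none higher. In this comparison 0.195% of all genes tested were called lower and 0.341% in either direction. The median change of the 28 genes was −0.34 on the log2(FPKM + 1) scale, against −0.01 over all genes, and 25 of the 28 changes were negative. In 17 genes all 3 anti-CD36 libraries were below all 3 untreated ones and in 1 (Scap) above, while 10.5% of all genes separated in this way downwards and 12.1% upwards.

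Insig1 stood at 14.3, 19.4 and 17.6 FPKM in the anti-CD36 libraries, against 28.6, 31.6 and 30.8 FPKM in the untreated libraries. The highest antibody library lay well under the lowest untreated one. Its change was −0.80 (SE 0.10, limma adjusted p = 0.0129), which put it at 56.3% of the untreated level. Insig2, the related retention protein, averaged 6.57 ± 0.982 FPKM in anti-CD36 cells and 7.07 ± 0.76 FPKM in untreated cells (SD, n = 3 each), with overlapping libraries (adjusted p = 0.574). Srebf2, which encodes SREBP2, had 28.3, 25.4 and 27.5 FPKM with the antibody, against 31.0, 33.3 and 27.1 FPKM in untreated cells, and its groups overlapped too (−0.16, adjusted p = 0.361). Scap, the escort of SREBP2, had 7.57, 6.88 and 7.71 FPKM with the antibody, against 6.09, 6.29 and 4.97 FPKM in untreated cells. Its libraries did not overlap, but the difference of 0.31 did not pass the test (adjusted p = 0.178).

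Of the 8 mevalonate and isoprenoid genes none was called, and all 8 changes were negative, from −0.76 to −0.05. Idi1, the isomerase that makes dimethylallyl diphosphate, had 14.3, 17.2 and 13.8 FPKM in anti-CD36 cells, against 24.4, 24.0 and 30.2 FPKM in untreated cells. The groups were far apart, and the adjusted p of 0.0595 for its change of −0.76 (SE 0.15) was just past the threshold. Hmgcs1, which makes HMG-CoA and whose window has the letter match shown above, averaged 19.2 ± 3.41 FPKM with the antibody and 29.9 ± 6.67 FPKM without it. Its libraries did not overlap, and the change of −0.60 (SE 0.18) did not pass the test (adjusted p = 0.157). Acat2, which joins acetyl-CoA units, had a change of −0.37 (adjusted p = 0.111), and Fdps, farnesyl diphosphate synthase, −0.36 (0.192). Mvd, the last enzyme before the isoprenoids, had a change of −0.33 (0.238), and these 3 also separated without overlap. The kinases Mvk (−0.05) and Pmvk (−0.12) overlapped, and Ggps1, which makes the geranylgeranyl group for protein prenylation, separated by −0.19 (adjusted p = 0.347).

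Among the genes that form squalene and lanosterol, Lss fell. This enzyme folds squalene epoxide into lanosterol, and its level was 5.80, 6.62 and 6.46 FPKM in anti-CD36 cells, against 8.77, 9.79 and 9.76 FPKM in untreated cells. The groups did not overlap, and the change was −0.52 (SE 0.08, adjusted p = 0.0314). Sqle, squalene epoxidase, also separated without being called (−0.35, adjusted p = 0.141), while Fdft1, squalene synthase, overlapped (−0.27, 0.193).

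Of the 9 genes that turn lanosterol into cholesterol 2 were called and 8 had negative changes. Cyp51, the lanosterol demethylase, had 21.5, 27.99 and 25.6 FPKM with the antibody, against 34.2, 38.4 and 39.8 FPKM in untreated cells. Msmo1, the methylsterol oxidase that acts after it, had 26.6, 28.2 and 26.1 FPKM, against 37.2, 35.6 and 34.5 FPKM in untreated cells. Neither gene's groups overlapped, and the changes were −0.57 (SE 0.10, adjusted p = 0.0422) for Cyp51 and −0.40 (SE 0.07, 0.0401) for Msmo1. Nsdhl, which works with Msmo1 to strip the methyl groups, had 15.0, 21.3 and 19.6 FPKM, against 26.5, 29.0 and 27.5 FPKM in untreated cells (−0.56, adjusted p = 0.0566). Its groups were separate, as were those of Hsd17b7 (−0.48), Sc5d (−0.40), Lbr (−0.40) and Dhcr7 (−0.21), the reductases and desaturase of the later steps, with adjusted p from 0.143 to 0.292. Tm7sf2 (−0.23) and Ebp (0.18), a sterol reductase and the sterol isomerase, overlapped between the groups.

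Of the transport and storage genes none was called without LPS. Stard4, a cytosolic sterol carrier, had 12.4, 15.1 and 12.4 FPKM in anti-CD36 cells, against 18.1, 19.3 and 26.2 FPKM in untreated cells. The groups did not overlap (−0.62, SE 0.15, adjusted p = 0.111). Npc1 and Npc2, which carry lipoprotein cholesterol out of the lysosome, and Soat1, which makes cholesteryl esters for storage, all overlapped, with changes of −0.12, 0.11 and −0.12.

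These calls rest on few libraries. The count of 4 fell to 0 without anti-CD36 replicate 3, untreated replicate 2 or untreated replicate 3, to 1 without anti-CD36 replicate 1, LPS replicate 2 or any 1 LPS+anti-CD36 library, and was 7 without LPS replicate 1, while Insig1 kept its call in 19 of 23 alternative settings. It lost it without the 3 libraries named first (adjusted p = 0.0843, 0.1 and 0.0575) and with the compared groups fitted alone (0.217).

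The antibody was next compared in cells that also received LPS. Here 9 of the 28 genes were called lower and none higher: Insig1, Idi1, Sqle, Lss, Cyp51, Msmo1, Nsdhl, Stard4 and Soat1. They span the brake on SREBP, 1 isoprenoid enzyme, 5 enzymes from squalene to the demethylated sterols, a carrier and the esterifying enzyme. In this comparison 8.14% of all genes were called lower and 15.5% in either direction. The median change was −0.27, against 0.02 over all genes. In 19 of the 28 genes the LPS+anti-CD36 libraries were all below the LPS libraries and in 1 (Ebp) all above, against 16.4% and 19.7% of all genes.

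Insig1 stood at 15.3, 16.5 and 15.0 FPKM in LPS+anti-CD36 cells, against 27.2, 29.6 and 31.2 FPKM in LPS cells. All 3 values with the antibody lay far below the LPS ones, and they were close to those of anti-CD36 alone. The change was −0.87 (SE 0.10, adjusted p = 0.000336), or 53.2% of the LPS level, and it was called in 23 of 23 alternatives. Insig2 (−0.26, adjusted p = 0.113) and Srebf2 (−0.26, 0.0927) separated without overlap but were not called. Scap overlapped, with 4.69, 4.79 and 5.08 FPKM, against 4.94, 3.91 and 3.61 FPKM in LPS cells.

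Lss had 6.32, 5.89 and 5.87 FPKM in LPS+anti-CD36 cells, against 8.86, 8.48 and 9.51 FPKM in LPS cells. The groups did not overlap, and the change of −0.50 (SE 0.08, adjusted p = 0.0017) was called in 23 of 23 alternatives. Sqle, the step before it, had 13.7, 14.4 and 13.6 FPKM, against 16.6, 18.5 and 18.1 FPKM in LPS cells (−0.33, adjusted p = 0.0471). Its groups were separate by a smaller distance. Idi1 had 9.78, 11.6 and 11.3 FPKM, against 12.7, 16.4 and 19.4 FPKM in LPS cells, which differ widely among themselves (−0.52, adjusted p = 0.0371).

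Cyp51 had 18.9, 20.0 and 18.6 FPKM in LPS+anti-CD36 cells, against 23.5, 26.4 and 26.4 FPKM in LPS cells. Msmo1 had 24.3, 26.1 and 25.8 FPKM, against 32.0, 33.9 and 34.05 FPKM in LPS cells. Nsdhl had 15.2, 15.6 and 15.5 FPKM, against 20.2, 20.5 and 21.2 FPKM in LPS cells. Each of these 3 demethylating enzymes separated the groups completely, with changes of −0.39 (SE 0.10, adjusted p = 0.0261), −0.38 (SE 0.07, 0.00488) and −0.40 (SE 0.11, 0.0287). Ebp took the other direction without passing the test, with 17.5, 15.9 and 15.1 FPKM, against 14.6, 11.6 and 11.2 FPKM in LPS cells (0.36, adjusted p = 0.0947).

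Soat1, the esterifying enzyme, had 18.9, 19.5 and 18.8 FPKM in LPS+anti-CD36 cells, against 29.4, 30.0 and 30.1 FPKM in LPS cells. Both groups were tight and far apart. The change was −0.62 (SE 0.09, adjusted p = 0.00106), called in 23 of 23 alternatives. Stard4 had 10.3, 10.8 and 11.2 FPKM, against 13.2, 17.99 and 19.1 FPKM in LPS cells (−0.58, adjusted p = 0.0281). Npc1 (−0.21, adjusted p = 0.0793) separated and Npc2 (0.29, 0.151) overlapped.

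The remaining genes were not called in LPS-treated cells. Hmgcs1 (−0.54), Hsd17b7 (−0.40), Sc5d (−0.32), Lbr (−0.28), Tm7sf2 (−0.23), Fdft1 (−0.15) and Acat2 (−0.15) separated downwards, with adjusted p from 0.0693 to 0.295. Mvd (−0.30), Ggps1 (−0.22), Fdps (−0.16), Mvk (−0.05), Pmvk (0.02) and Dhcr7 (0.04) overlapped. The count of 9 fell to 4 without any 1 LPS+anti-CD36 library, LPS replicate 2 or LPS replicate 3, each of which ended the calls of Idi1, Sqle, Cyp51, Nsdhl and Stard4. Idi1 and Sqle were also lost without anti-CD36 replicate 3 or untreated replicate 2, and without LPS replicate 1 the count was 16 lower and 3 higher.

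**Figure D2:**
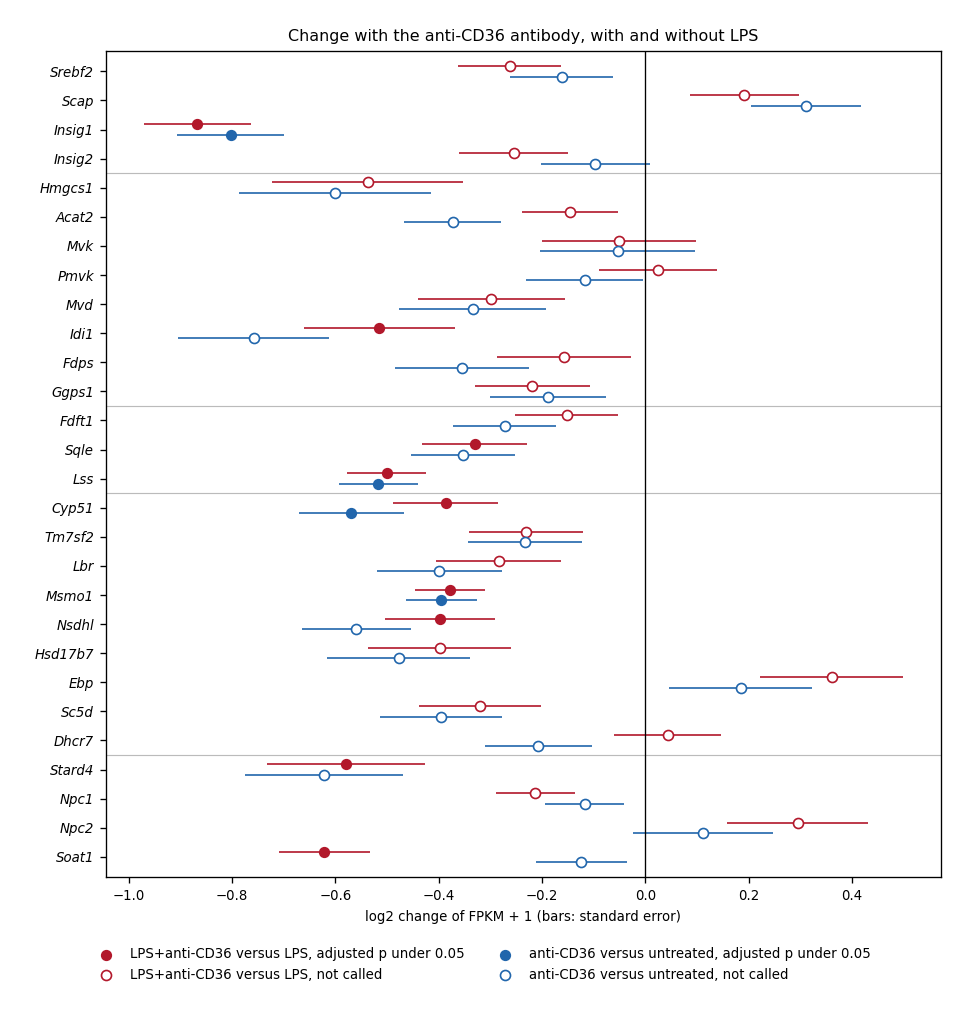
Change of each gene with the antibody on the log2(FPKM + 1) scale (x axis), in LPS-treated cells (red, LPS+anti-CD36 versus LPS) and without LPS (blue, anti-CD36 versus untreated); bars are standard errors, filled points passed an adjusted p of 0.05, and lines divide the role groups. Most points lie left of 0 in both colours, from −0.87 and −0.80 for Insig1 to positive values for Scap, Ebp and Npc2.

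The antibody changes with and without LPS come from separate libraries, so they can be set side by side. The 4 genes called without LPS were all among the 9 called with LPS (100% of the first list and 44.4% of the second). Both changes were negative in 23 of the 28 genes and both positive in 3. Agreement in sign was common among all 10276 genes too, with 4028 lower in both and 4108 higher in both. Across the 28 genes Pearson's r between the changes was 0.835 and Spearman's rho 0.787, given as a description because genes are not independent and share their libraries. Over all 10276 genes the values were 0.682 and 0.736.

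**Figure D3:**
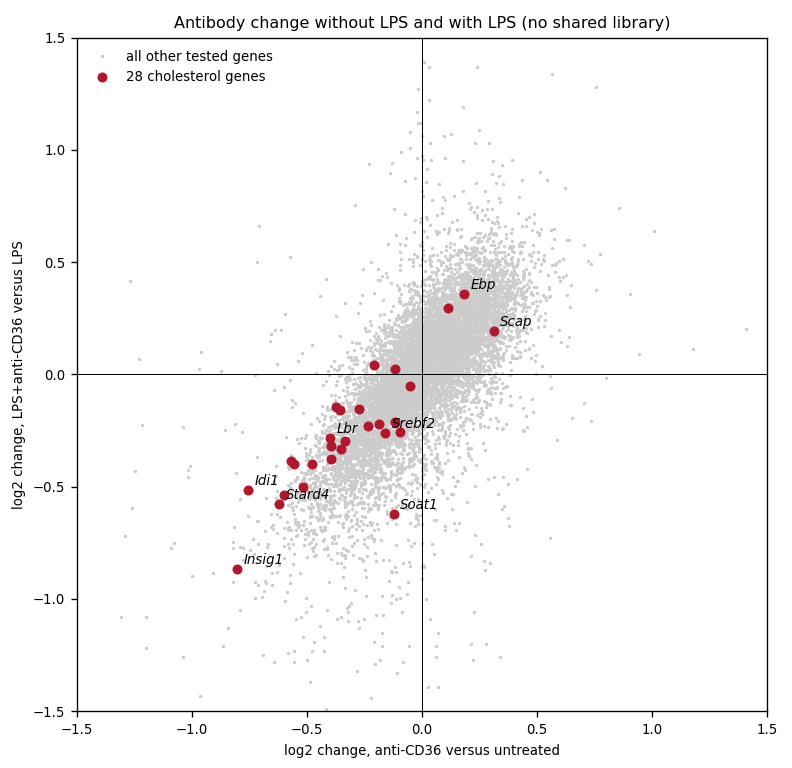
Change with the antibody without LPS (x axis) and with LPS (y axis), both as log2 change of FPKM + 1; grey points are all other genes tested and red points the 28 cholesterol genes, and 19 genes lie outside the axes. The red points lie mostly at the lower left, with Insig1 at its end and Soat1 lower on the y axis alone.

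Whether the antibody change differed by LPS was tested as an interaction. None of the 28 genes passed (limma; 1 of 28 had an unadjusted p under 0.05, and limma-voom on recovered fragments also called 0), while 1.28% of all genes were called. For Insig1 the difference between the antibody changes was −0.06 (SE 0.15) and for Lss 0.02 (SE 0.11). The gene with an unadjusted p under 0.05 was Soat1, at −0.50 (SE 0.12, limma adjusted p = 0.11).

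The changes of all genes with the antibody went with base composition and length. Over the 10100 genes with both values, the change without LPS had a Spearman correlation of 0.55 with GC content and −0.51 with exon length, and with LPS 0.37 and −0.50. For LPS against untreated cells the values were −0.07 and 0.05. The 28 genes had a median exon length of 4657.5 bases and a median GC content of 48.4%, against 4300.5 bases and 49.4% over all genes. With this trend removed from each library, 14 of the 28 genes were called lower without LPS (2.68% of all genes) and none higher. In LPS-treated cells 16 were called lower (13.0% of all genes) and 1, Scap, higher (11.7%). Insig1 then had changes of −0.82 without LPS and −0.93 with LPS. Msmo1 lost its call in both comparisons (−0.25, adjusted p = 0.159, without LPS, and −0.24, adjusted p = 0.0852, with LPS), and with LPS Soat1 was −0.38 (adjusted p = 0.0141) and Lss −0.29 (0.0105), both still called. Pmvk turned from 0.02 to −0.23 with LPS and was then called (adjusted p = 0.0425).

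**Figure D4:**
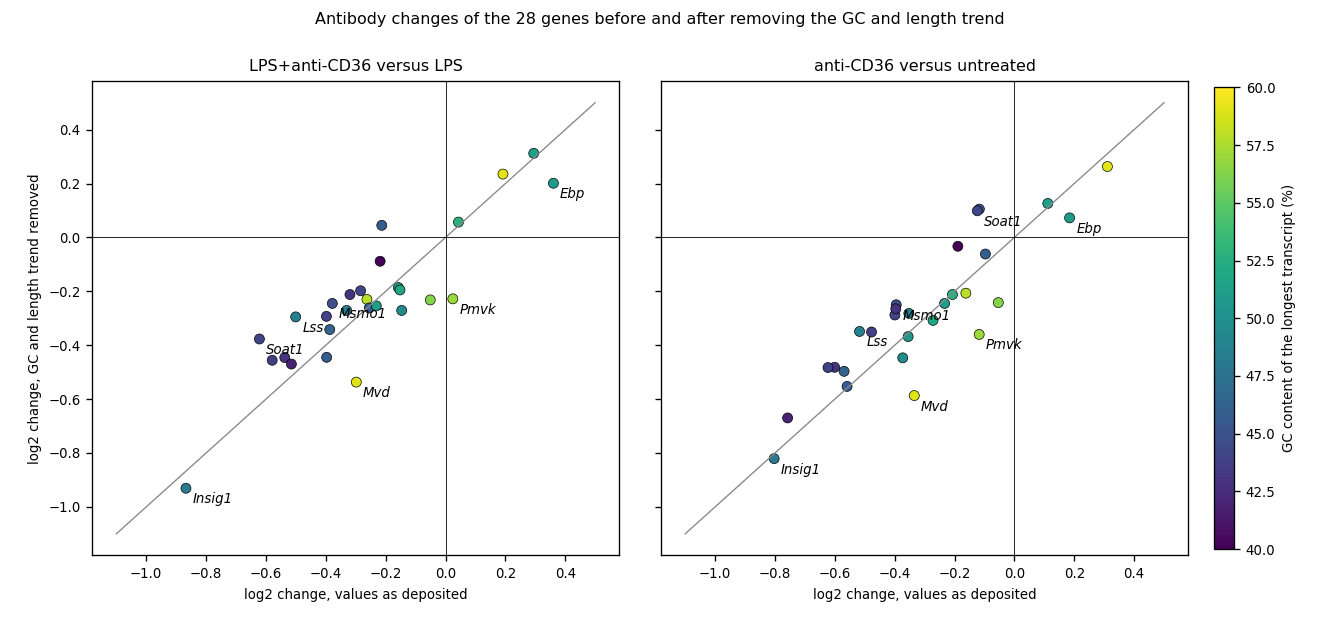
Antibody change of the 28 genes from the values as deposited (x axis) and with the GC and length trend of each library removed (y axis), in LPS-treated cells (left) and without LPS (right); colour is the GC content of the longest transcript and the grey line marks equal values. Soat1 and Msmo1, GC-poor and long (9791 and 6144 exon bases), move towards 0 or above it. Mvd and Pmvk, GC-rich and short (1859 and 1713 exon bases), move down, and Insig1 stays near the line at −0.93 and −0.82.

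LPS alone was compared with no treatment to give the response of these genes to the bacterial ligand. In LPS cells 16 of the 28 genes were lower, most of them enzymes, and Npc2, Ggps1 and Soat1 were higher. In this comparison 33.1% of all genes tested were called lower, 16.6% higher and 49.8% in either direction. The median change was −0.40, against −0.14 over all genes. TPM scaling gave a median of −0.17 over all genes. Median-of-ratios scaling, which sets that median near 0 by construction (−0.0043), gave a split of 9 lower and 4 higher among the 28 genes and of 2226 lower (21.7%) and 2352 higher (22.9%) among all genes. Whether the shift of all genes lies in the scaling or in the RNA was not tested. The 7 genes that lost their call under that scaling were Srebf2, Scap, Mvk, Pmvk, Mvd, Tm7sf2 and Sc5d (adjusted p from 0.0599 to 0.132), and with the compared groups fitted alone Scap, Pmvk, Mvd, Sc5d and Soat1 lost theirs (0.0531 to 0.0747). Cell cycle genes moved with the same comparison, with 10 of 10 lower and a median change of −1.40, and their part in the result was not tested.

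Lbr, a sterol reductase that also anchors chromatin at the inner nuclear membrane, had 19.0, 23.3 and 22.0 FPKM in LPS cells, against 40.8, 46.7 and 52.8 FPKM in untreated cells. No library of either group came near the other. Its change of −1.09 (SE 0.12, adjusted p = 1.61e-05) was the largest fall among the 28 genes in this comparison. Tm7sf2, the other enzyme of that reductase step, had 1.33, 1.05 and 0.972 FPKM, against 2.17, 1.57 and 1.62 FPKM in untreated cells (−0.39, adjusted p = 0.0107). Its level was far lower, and the call was also lost with the GC and length trend removed (−0.28, adjusted p = 0.0581).

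The mevalonate genes made up the next group, with 6 of 8 lower and 1 higher. Acat2 had 18.5, 20.2 and 18.3 FPKM in LPS cells, against 34.9, 32.5 and 35.1 FPKM in untreated cells (−0.81, SE 0.09, adjusted p = 1.97e-05). Fdps had 90.2, 75.6 and 67.6 FPKM, against 144, 129 and 105 FPKM in untreated cells (−0.69, adjusted p = 0.000919). Neither gene's groups overlapped, and the same held for Idi1 (−0.68) and Pmvk (−0.42). Mvk (−0.53, adjusted p = 0.0111) and Mvd (−0.50, 0.0115) were called although 1 library of each group overlapped the other. Ggps1 went the other way, with 8.41, 10.1 and 11.7 FPKM in LPS cells, against 6.95, 6.85 and 7.72 FPKM in untreated cells (0.43, adjusted p = 0.00755), and was the only one of the 8 to rise. Hmgcs1, at 17.1, 22.4 and 26.5 FPKM, against 24.6, 27.7 and 37.4 FPKM in untreated cells, was not called (−0.42, adjusted p = 0.0768).

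Of the genes for squalene and lanosterol Sqle fell (−0.57, adjusted p = 0.000587), while Fdft1 (−0.16, 0.21) and Lss (−0.07, 0.487) were not called. Of the 9 later enzymes 7 fell. Besides Lbr and Tm7sf2 they were Ebp (−0.65), Cyp51 (−0.54), Dhcr7 (−0.50), Nsdhl (−0.40) and Sc5d (−0.36), with adjusted p from 0.000836 to 0.0256. Sc5d lost its call without LPS replicate 1, untreated replicate 2 or untreated replicate 3 (adjusted p = 0.079, 0.0546 and 0.0894), and Mvk without LPS replicate 2 (0.0531). Msmo1 (−0.10) and Hsd17b7 (0.10) were not called. Lss and Msmo1, both lower with the antibody, thus showed changes of 0.10 or less in size with LPS.

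In SREBP2 control, Srebf2 fell with LPS, at 25.8, 22.2 and 20.2 FPKM, against 31.0, 33.3 and 27.1 FPKM in untreated cells (−0.41, adjusted p = 0.00494). Scap fell as well (−0.40, adjusted p = 0.00811). Both calls were lost with median-of-ratios scaling (adjusted p = 0.086 and 0.0809). Insig1 had 27.2, 29.6 and 31.2 FPKM in LPS cells, against 28.6, 31.6 and 30.8 FPKM in untreated cells, a difference of −0.05 (SE 0.10, adjusted p = 0.732). Insig2 differed by 0.05 (adjusted p = 0.745), so the groups of both INSIG genes overlapped where their partners fell.

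Transport and storage held the other 2 risers. Npc2, the soluble cholesterol carrier of the lysosome, had 124, 96.4 and 90.9 FPKM in LPS cells, against 65.0, 57.9 and 46.5 FPKM in untreated cells. The groups did not overlap (0.87, SE 0.14, adjusted p = 0.000233). Its membrane partner Npc1 had 3.45, 3.63 and 3.70 FPKM, against 2.99, 3.63 and 3.54 FPKM in untreated cells (0.07, limma adjusted p = 0.482), where the values overlap. Among the alternatives Npc1 was called only under median-of-ratios scaling, as higher (limma adjusted p = 0.0351). Soat1 had 29.4, 30.0 and 30.1 FPKM, against 22.4, 25.0 and 26.7 FPKM in untreated cells (0.27, SE 0.09, adjusted p = 0.0248). That call was lost in 6 of 23 alternatives, among them those without LPS replicate 2 (adjusted p = 0.0664) or 3 (0.0555) and without untreated replicate 1 (0.0941) or 2 (0.055). Stard4 was not called (−0.32, adjusted p = 0.107).

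**Figure D5:**
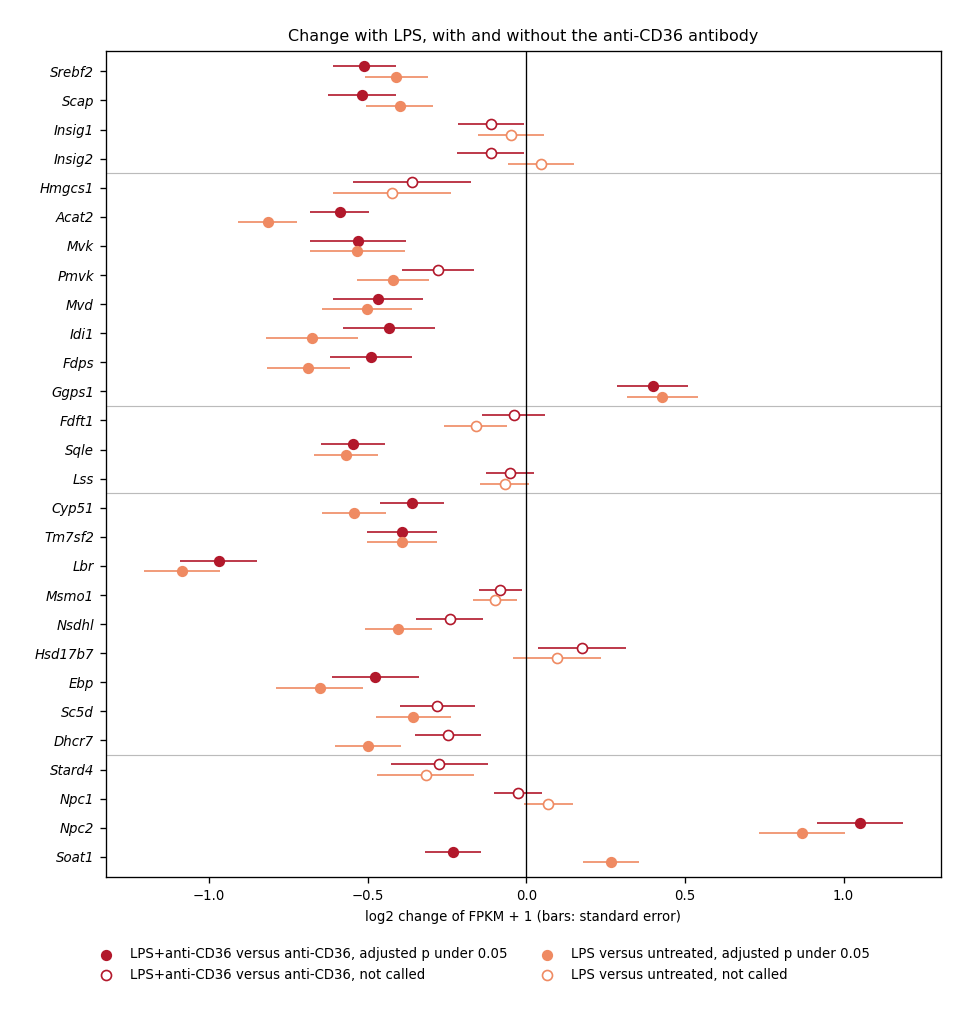
Change of each gene with LPS on the log2(FPKM + 1) scale (x axis), in antibody-treated cells (red, LPS+anti-CD36 versus anti-CD36) and without the antibody (orange, LPS versus untreated); bars are standard errors, filled points passed an adjusted p of 0.05, and lines divide the role groups. Lbr lies furthest left (−0.97 and −1.09), Npc2 furthest right (1.05 and 0.87), and the 2 points of Soat1 fall on opposite sides of 0.

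In antibody-treated cells LPS was compared in the same way. Here 13 of the 28 genes were lower and 2 (Ggps1 and Npc2) higher, while 31.3% of all genes were called lower, 16.3% higher and 47.5% in either direction. The median change was −0.28, against −0.12 over all genes, and with median-of-ratios scaling 6 were lower (21.5% of all genes) and 2 higher (21.9%). The 7 that lost their call under it were Mvk, Mvd, Idi1, Fdps, Cyp51, Ebp and Soat1 (adjusted p from 0.0534 to 0.337). With the GC and length trend removed Tm7sf2 and Soat1 lost theirs (0.0534 and 0.149), and Srebf2 and Scap, still called, shrank to −0.31 and −0.30. Ggps1, Idi1 and Soat1 were not called under TPM scaling (0.0577 to 0.0921). The 10 cell cycle genes were again all lower (median −1.39), and their part in the result was not tested.

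Lbr had 17.5, 17.2 and 17.5 FPKM in LPS+anti-CD36 cells, against 29.97, 40.3 and 35.5 FPKM in anti-CD36 cells (−0.97, SE 0.12, adjusted p = 4.15e-05). The combined libraries were nearly equal and all lower. Npc2 had 131, 127 and 121 FPKM, against 64.9, 56.5 and 60.5 FPKM in anti-CD36 cells (1.05, adjusted p = 5.42e-05). Ggps1 had 7.89, 8.24 and 9.26 FPKM, against 5.54, 6.78 and 6.22 FPKM in anti-CD36 cells (0.40, adjusted p = 0.0118). Both genes separated the groups upwards, as they did without the antibody. On the log2(FPKM + 1) scale, which understates changes of low genes, the largest falls after that of Lbr were those of Acat2 (−0.59, limma adjusted p = 0.000276), Sqle (−0.55, 0.000818), Mvk (−0.53, 0.012), Scap (−0.52, 0.0017) and Srebf2 (−0.51, 0.00126). Fdps, Ebp, Mvd, Idi1, Tm7sf2 and Cyp51 followed, with changes from −0.49 to −0.36, although in mean FPKM Tm7sf2 (58.4% of the anti-CD36 level) fell further than Acat2 (64.9%). Some of these rest on 1 library: Mvk, Tm7sf2 and Ebp were lost without anti-CD36 replicate 1, Cyp51 without anti-CD36 replicate 2, Idi1 without LPS+anti-CD36 replicate 1 or 3 or anti-CD36 replicate 2, Mvd without LPS+anti-CD36 replicate 3 or anti-CD36 replicate 1 or 3, and Ebp and Ggps1 without LPS+anti-CD36 replicate 3 (adjusted p from 0.0505 to 0.111).

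Soat1 was called lower here, at 18.9, 19.5 and 18.8 FPKM in LPS+anti-CD36 cells, against 20.0, 24.8 and 23.0 FPKM in anti-CD36 cells. The groups separate by a small margin, and the change of −0.23 (SE 0.09, adjusted p = 0.0497) was called in 8 of 23 alternatives (adjusted p from 0.0127 to 0.337), being lost without any 1 LPS+anti-CD36 library, LPS replicate 2 or 3, anti-CD36 replicate 2 or 3, or untreated replicate 2 (adjusted p from 0.0555 to 0.184). Insig1 (−0.11), Insig2 (−0.11), Lss (−0.05), Msmo1 (−0.08), Fdft1 (−0.04) and Npc1 (−0.03) overlapped and were not called. Nor were Hmgcs1 (−0.36), Pmvk (−0.28), Sc5d (−0.28), Stard4 (−0.27), Dhcr7 (−0.25), Nsdhl (−0.24) and Hsd17b7 (0.18). The count of 15 was 10 without LPS+anti-CD36 replicate 3 and 18 without LPS replicate 1. This comparison shares its LPS+anti-CD36 libraries with the antibody comparison in LPS-treated cells.

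Genes next to the 28 in the pathway were counted from lists of their own, to be read against the shares of all genes called lower with the antibody (0.195% without LPS and 8.14% with LPS) and with LPS (33.1%, and 16.6% higher). Of 13 tested genes for SREBP processing and sterol-regulated degradation none was called with the antibody without LPS. In LPS-treated cells the antibody lowered Srebf1, the SREBP family member better known for fatty acid genes, and raised Aup1, which serves protein disposal at the endoplasmic reticulum. Srebf1 had 8.29, 8.47 and 7.78 FPKM in LPS+anti-CD36 cells, against 13.6, 11.3 and 10.1 FPKM in LPS cells (−0.46, adjusted p = 0.0117). Aup1 averaged 38.8 ± 1.59 FPKM in LPS+anti-CD36 cells and 30.2 ± 4.17 FPKM in LPS cells (0.36, limma adjusted p = 0.034). Both genes also separated without overlap in the absence of LPS, among 2 of the 13 downwards and 2 upwards (10.5% and 12.1% of all genes). There Aup1 averaged 44.7 ± 2.78 FPKM with the antibody and 31.9 ± 2.31 FPKM in untreated cells, and Srebf1 13.0 ± 0.661 and 15.3 ± 1.08 FPKM. No gene of this list was called for the interaction. With LPS against untreated cells Mbtps1, the Golgi protease that makes the first cut in SREBP, and Srebf1 were lower (both −0.37) and Faf2 higher (0.25).

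Of 10 genes that supply substrate or electrons, only Acly was called lower with the antibody, in both comparisons, and none was called higher. Acly makes cytosolic acetyl-CoA from citrate. It had 45.1, 53.9 and 50.3 FPKM in anti-CD36 cells, against 65.0, 72.4 and 73.5 FPKM in untreated cells (−0.49, SE 0.09, adjusted p = 0.0401). The groups were apart, as they were in LPS-treated cells, where Acly had 51.4, 52.8 and 50.7 FPKM with the antibody, against 65.8, 70.7 and 63.3 FPKM with LPS alone (−0.36, adjusted p = 0.0182). LPS against no treatment raised Por, a reductase that feeds electrons to Cyp51 and Sqle among other enzymes, to 66.9, 54.5 and 48.1 FPKM, against 23.3, 22.7 and 20.2 FPKM in untreated cells (1.31, adjusted p = 1.56e-06). It also raised Acss2 (0.22) and lowered Tmem97 (−0.92), Cyb5a (−0.60), Cyb5b (−0.41) and Acat1 (−0.23).

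Of 12 genes for protein prenylation, dolichol and ubiquinone, none was called with the antibody in either state, and LPS against no treatment lowered Dhdds alone (−0.36, adjusted p = 0.00284). Of 12 other genes for uptake and sterol transport, none was called with the antibody without LPS. In 3 of them, among these Lrp1 and Tmem41b, the anti-CD36 libraries were all below the untreated ones, and in 1 all above (10.5% and 12.1% of all genes). Tmem41b averaged 9.89 ± 0.868 FPKM in anti-CD36 cells and 12.8 ± 0.555 FPKM in untreated cells. In LPS-treated cells the antibody lowered Lrp1, a large lipoprotein receptor, to 14.0, 13.0 and 12.5 FPKM, against 21.6, 20.2 and 17.5 FPKM in LPS cells (−0.55, limma adjusted p = 0.0027). Tmem41b was called lower too (−0.27, 0.0398). None of the 12 was called for the interaction. LPS against no treatment raised 4 and lowered 5 of these 12, while 16.6% and 33.1% of all genes were called in these directions. Lipa, the acid lipase that frees cholesterol from lipoprotein esters, had 24.6, 27.5 and 26.5 FPKM in LPS cells, against 57.5, 67.4 and 72.7 FPKM in untreated cells (−1.29, SE 0.11, adjusted p = 1.13e-06). Gramd1a and Gramd1b, which move cholesterol from the plasma membrane to the endoplasmic reticulum, rose (1.00 and 0.92), as did the sterol carriers Stard5 (0.74) and Stard3 (0.55). The lysosomal genes thus diverged, with Npc2 higher, Lipa lower and Npc1 not called in the main fit. Of 5 oxysterol enzymes 1 was expressed highly enough to be tested, Cyp27a1, which LPS lowered (−0.61, adjusted p = 5.16e-05). Ch25h was listed at 0 in all untreated and anti-CD36 libraries and reached 0.183 FPKM at most with LPS.

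The neighbouring lipid lists are set against the same shares of all genes called lower (0.195% without LPS and 8.14% with LPS). Of 9 tested genes of fatty acid synthesis, 2 were called lower with the antibody without LPS (Scd1 and Scd2) and 4 with LPS (also Acaca and Fads2). In each comparison 8 of the 9 changes were negative. Their medians were −0.34 and −0.42, against −0.34 and −0.27 for the 28 genes. The lowest single changes on this list were −1.2 and −1.55, so falls with the antibody were not particular to the cholesterol genes. Of 6 genes of the sterol-sensing LXR receptors and efflux, none was called with the antibody without LPS and 2 were called lower with LPS (Abca1, −0.64, and Abcg1, −0.61). Without LPS 4 of the 6 changes were negative, and the same 2 genes separated downwards (10.5% of all genes). Abca1 then averaged 0.259 ± 0.0707 FPKM with the antibody and 0.735 ± 0.329 FPKM in untreated cells, and Abcg1 13.7 ± 0.647 and 16.3 ± 0.53 FPKM. Cd36 transcript itself averaged 11.2 ± 0.974 FPKM in LPS+anti-CD36 cells and 5.86 ± 1.47 FPKM in LPS cells (0.85, limma adjusted p = 0.00214, SD, n = 3 each). Without LPS it averaged 0.379 ± 0.111 FPKM in anti-CD36 cells and 0.17 ± 0.0405 FPKM in untreated cells (0.23, limma adjusted p = 0.337). These last libraries did not overlap, and at levels below 1 FPKM the log2(FPKM + 1) scale understates the change, so 0.23 and 0.85 are not comparable in size.

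Some values could carry reads of other genes, since the sources used here do not say whether counting used strand. In the GENCODE M21 annotation 18.3% of the exon bases of Fdft1 overlap Ctsb on the opposite strand, a gene at 195 to 232 FPKM. For Fdps 26.7% overlap the gene model Gm43738 on the same strand, and for Tm7sf2 12.1% overlap Vps51 (3.79 to 7.33 FPKM), so the levels of these 3 genes are uncertain. Models on the opposite strand also cover 13.2% of the exon bases of Scap, 12.1% of Hmgcs1 and 9.2% each of Idi1 and Lbr. The one over Lbr, Dnah14, stood at 0.0541 FPKM at most. Those over Scap, Hmgcs1 and Idi1 had no level listed, so the caveat holds for these genes too. Acat2 has a near-identical copy, Acat3, which stood between 0.102 and 0.426 FPKM.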

How the data were processed

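The deposited table, made by the authors, holds FPKM values for 31801 entries named by gene symbol in 12 libraries; a repeated symbol kept its entry of highest mean (82 left out). Alignment tool HISAT2 (2.0.5) and the builds mm39 and hg38, without their roles, are listed per the submitters' processing notes. The counting tool, annotation, strandedness and filters are not given in the sources used here. The 28 genes and all lists were chosen with earlier results of these data known.

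FPKM values were analysed as log2(FPKM + 1), which understates changes of low genes. The 10276 genes that reached 1 FPKM in 3 or more libraries were fitted (Il6 was left out because its values equal those of Gm10874 in 6 libraries) with 1 limma model of the 4 group means and an intensity trend (limma 3.58.1, R 4.3.3). Tests were two-sided, over all 12 libraries, with Benjamini-Hochberg adjustment per comparison. Depth and fragments were recovered from the steps of the values with exon-union lengths of GENCODE M21 (GRCm38): of 18143 genes above 0, 94.5% of those with a length were whole in every library within 0.005 fragments. GC content and length were known for 98.3% of the genes tested, and their trend was removed per library by a spline with 4 degrees of freedom as an alternative. The other alternatives were another pseudocount (0.1), no filter, a filter of 5 FPKM, TPM and median-of-ratios scaling, the compared groups alone, no intensity trend, a replicate block, each library left out and, chosen after seeing the data, limma-voom on the recovered fragments. The fit was also run on simulated data with independent noise per gene and library. These held no GC or length trend and no replicate effect, so the run does not bear on either. Genes outside the 28 were named by smallest p among the called, at most 4 per list, with counts of 5 or fewer named in full. Python 3.11.15, numpy 2.4.6, pandas 2.3.3, scipy 1.17.1 and matplotlib 3.10.9 were used for the rest.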

Additional observations from a re-analysis of the deposited data

Results flagged for a closer look

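Soat1, the cholesterol-esterifying enzyme, had LPS changes of opposite sign with and without the antibody (−0.23 and 0.27). They were called in 8 and 17 of 23 alternatives, and the fall was −0.17 with the GC and length trend removed (limma adjusted p = 0.149). All 3 LPS+anti-CD36 libraries (18.8 to 19.5 FPKM) were below all 3 anti-CD36 libraries (20.0 to 24.8 FPKM), while all 3 LPS libraries (29.4 to 30.1 FPKM) were above all 3 untreated libraries (22.4 to 26.7 FPKM). Of all 10276 genes tested, 4349 separated downwards in the first of these comparisons and 1716 upwards in the second. The interaction was −0.50 (SE 0.12) and did not pass limma's test over all genes (adjusted p = 0.11). It passed in 4 of 22 alternatives, with an adjusted p of 0.0369 under median-of-ratios scaling, 0.031 with the replicate block, 0.0359 with that block and the GC and length trend removed, and 0.0448 without anti-CD36 replicate 1.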

How the results depend on the processing

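Same-numbered libraries 1, 2 and 3 correlated in their deviations from the group means by 0.66, −0.32 and −0.03 between anti-CD36 and untreated cells, by 0.55, −0.04 and 0.57 between LPS+anti-CD36 and LPS cells, by 0.78, −0.24 and 0.81 between LPS and untreated cells, and by 0.45, −0.02 and 0.03 between LPS+anti-CD36 and anti-CD36 cells. In no comparison did all 3 pairs exceed 0.1, so the numbers were not taken as pairing in the main fit, although some pairs deviated together. This cut-off does not decide whether they mark pairs, since a library near its group mean can correlate weakly with any other. With the replicate block, genes called were 1164 without LPS and 3645 with LPS for the antibody (14 and 20 of the 28 cholesterol genes), and 212 for the interaction (1 of the 28). Against the main counts of 35 and 1590 genes (4 and 9 of the 28) for the antibody and 132 (0) for the interaction, removing the GC and length trend gave 438, 2496 and 403 genes (14 and 17 of the 28), and doing so with the block 994, 3585 and 557 genes (19, 23 and 1 of the 28). With it removed, Pmvk with the antibody in LPS-treated cells was called at −0.23, the reverse of its value in the main analysis, with the block (adjusted p = 0.0145) and without it (0.0425). Without LPS the antibody called 16 genes (1 of the 28) under TPM scaling, and 0 genes (0 of the 28) by limma on the compared groups alone, where 1716 genes and 17 of the 28 had an unadjusted p under 0.05. That fit gave 939 genes in LPS-treated cells. Median-of-ratios scaling gave 8 of the 28 for LPS in antibody-treated cells (main 15) and 1 for the interaction, where the stricter filter called 85 genes and limma-voom 70. Leaving out 1 library moved the antibody counts from 1 to 131 genes (0 to 7 of the 28) without LPS and from 582 to 3977 (4 to 19) with LPS. The LPS counts ran from 4302 to 5459 (17 to 19) against untreated and from 4024 to 5447 (10 to 18) against anti-CD36, and the interaction from 77 to 161 (0 to 1). Of the alternative values of genes called in the main analysis, 54 of 92 and 171 of 207 kept the call for the antibody without and with LPS, and 413 of 436 and 307 of 344 for LPS without and with the antibody. The causes were not tested. With 3 libraries a group, small changes of single genes are at the limit of what can be called, and no p-value reaches beyond these libraries.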
